A study of Mus musculus with 12 samples.

Results

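The comparison described here set the dorsal telencephalon of mouse embryos lacking both the U11 small nuclear RNA gene Rnu11 and the tumour suppressor gene Trp53 (dKO) against that of control embryos, and asked which protein-coding genes differed when p53 could not respond. It used 8 of the 12 libraries of the series, 4 dKO and 4 control, each from 1 embryo of stage E13.5; the 4 embryos that lacked Rnu11 alone (cKO) were used for values set beside them. The dKO embryos were Rnu11flx/flx::Trp53flx/flx::Emx1-Cre+, the cKO embryos Rnu11flx/flx::Trp53wt/wt::Emx1-Cre+, and the control embryos Rnu11wt/flx::Trp53wt/wt::Emx1-Cre+, all C57/Bl6. Every group therefore carried the Cre transgene, the control was heterozygous for the floxed Rnu11 allele, and no group had Trp53 loss alone. Emx1-Cre acts in progenitors of the pallium and their offspring, so blood, vessel, meningeal and microglial cells in the same tissue keep both genes. The genes described are the protein-coding ones whose mean over the 8 libraries reached 1 TPM (a level per gene length, brought to the same sum in each library), 9784 of the 11366 genes of any type that passed that limit.

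U11 is the RNA of the particle that recognises the 5′ splice site of minor introns, a rare class that a separate spliceosome removes from genes with functions in the cell cycle, RNA processing, DNA repair and signalling. When these introns are not removed, the host transcripts tend to be retained and degraded or to code for a broken protein. In radial glia, the dividing progenitors of the cortex, loss of the minor spliceosome is known to bring DNA damage, activation of p53 and death of cells, which deletion of p53 can relieve. The double mutant therefore shows expression in cortex in which both U11 and p53 were deleted in the Cre lineage. With no group lacking Trp53 alone, differences that come from either loss cannot be told apart in this comparison.

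The U11 RNA is printed because its 5′ end is the part that reads the intron. It is transcribed from chr4:132270080-132270213 (minus strand, GRCm38) and is 134 bases long in the GENCODE M21 transcript. Written 5′ to 3′ as DNA, capitals mark bases 3 to 7, AAAGG, which are the reverse complement of the last letters of the minor 5′ splice site ATATCCTTT.
Rnu11: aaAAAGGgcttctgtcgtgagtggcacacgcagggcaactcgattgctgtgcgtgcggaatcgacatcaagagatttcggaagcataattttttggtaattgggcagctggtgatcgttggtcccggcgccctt

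Both deleted genes were lower in every dKO embryo. Rnu11 measured 674, 521, 724 and 643 TPM in control embryos 1 to 4 and 145, 142, 169 and 199 TPM in dKO embryos 1 to 4, so that 25.6% of the control mean remained. On the log2(TPM + 1) scale used throughout, with each library shifted by its median difference from the mean library, the difference was −1.94 (SE 0.14), with an exact two-sided permutation p of 0.0286, the smallest that 4 against 4 embryos allow (0.0429 adjusted over 3 such tests). Trp53 measured 6.37, 2.90, 2.63 and 3.37 TPM in the controls and 0.920, 1.49, 1.13 and 1.36 TPM in dKO. Its difference was −1.04 (SE 0.19; exact permutation p = 0.0286, adjusted 0.0429), and −0.83 without control 1, whose value was the highest. limma lost its call of Trp53 (adjusted p = 0.0212) without control 4 or dKO 3 (up to 0.0603). In cKO, Trp53 stood at 4.24 ± 0.404 TPM (SD, n = 4) and Rnu11 at 144 ± 20.4 TPM. The labels do not say which exons were floxed, and cells outside the Cre lineage and unrecombined transcript cannot be told apart in a bulk sample. Likewise, for every gene below, fewer cells of a type and less RNA per cell cannot be told apart.

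Libraries were of total RNA, and TPM keeps no depth, so the number of reads behind each value is unknown. Protein-coding genes took 15.6 ± 0.764% of the TPM in control, 14.9 ± 0.475% in dKO and 17.4 ± 1.84% in cKO (SD, n = 4 each). The dKO and control shares differed by −0.72 percentage points (exact two-sided permutation p = 0.171). Between 24574 and 29300 symbols were above 0 in the dKO libraries and between 25418 and 26618 in the control libraries. In the values as deposited, the median protein-coding gene was 0.25 higher on the log2 scale in cKO than in control, so the cKO differences below are relative to that median. For dKO the corresponding median was −0.02. Markers of the pallium were present in both groups: Emx1 had a mean of 8.84 TPM in control and 6.05 in dKO, and Pax6 14.7 and 14.5 TPM, while Dlx2, a marker of the ventral telencephalon, stayed between 0.0801 and 0.406 TPM in all 8.

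Without p53, 333 of the 9784 protein-coding genes tested differed from control (3.4% called by limma at a Benjamini-Hochberg adjusted p under 0.05 over all 11366 genes). At an unadjusted p under 0.05 there were 1954 of the 9784, beside which the unadjusted counts of the lists below should be read. Of any type, 468 genes were called (4.12%). Of the 333, 120 were higher (1.23%) and 213 lower (2.18%), and 38 of the 213 were replication-dependent histone genes. Changes were small: the median absolute difference of a called gene was 0.52, and 12 genes reached a difference of 1, 2 of them higher and 10 lower. In 330 of the 333 the values of the 4 dKO embryos lay wholly above or below those of the 4 controls, which was so for 12.7% of all protein-coding genes tested. The split between higher and lower depended on scaling: with no shift, 78 of 335 called genes were higher (23.3%), and with protein-coding TPM rescaled to equal sums 173 of 355 were higher (48.7%), against 36.0% here. The number called also depended on single embryos, from 100 without control 4 to 349 without dKO 1, and 85 genes, 21 higher and 64 lower, were called in all 8 fits that left out 1 embryo. All 333 kept their direction in those 8 fits. For a gene called in only a few of them, the text says which embryo had to be absent for the call to be kept, and gives the highest adjusted p over the 8. Of the 333, 90 fell in the lists of genes by function described below and 243 in none. The lists were chosen with earlier results of these data known, so their counts are a description.

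**Figure D1:**
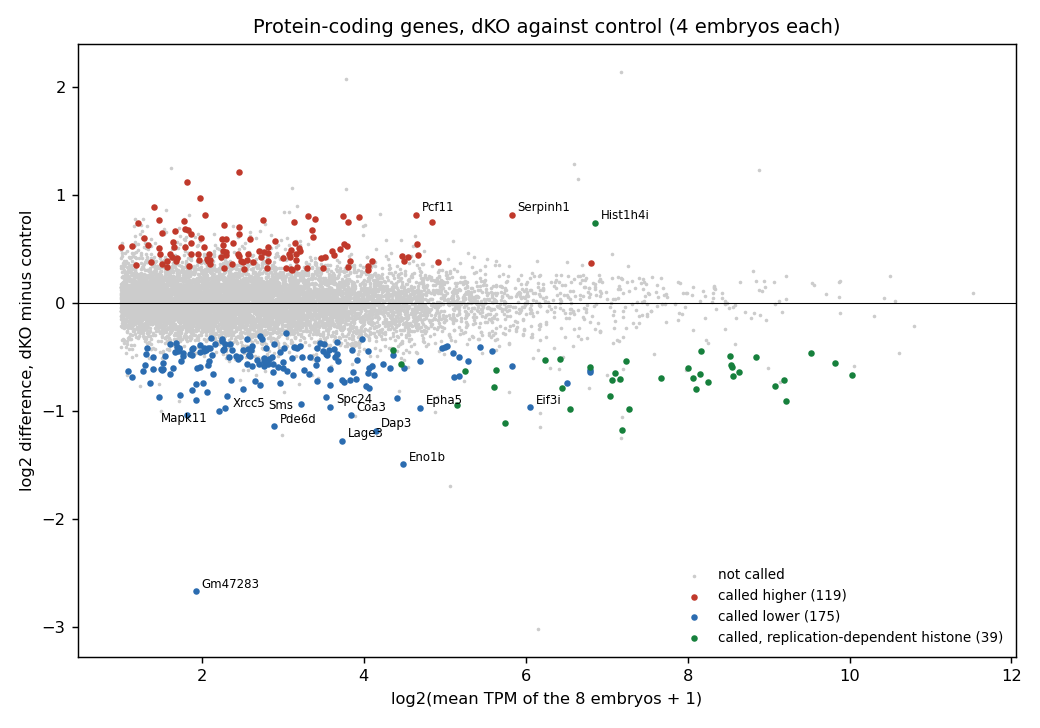
Each point is 1 of 9784 protein-coding genes, with its mean level over the 8 embryos on the horizontal axis (log2 of TPM + 1) and the log2 difference of dKO minus control on the vertical axis. Called genes are coloured: 119 higher and 175 lower genes and 39 replication-dependent histones, of which 1, Hist1h4i, lies above 0 while the others form a band below 0 at high levels.

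The largest decreases by size were those of Eno1b, Lage3, Dap3, Pde6d, Coa3, Mapk11, Xrcc5, Epha5, Eif3i, Spc24 and Sms. These 11 were chosen by size among called genes with groups that did not overlap and at least 5 TPM in the higher group. Histones, sex-linked markers and predicted gene models were left out, so their order is a description. In dKO they stood at 34.3% to 49.99% of the control mean. In all of them but Eno1b the call held whichever embryo was left out.

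Lage3, a subunit of the KEOPS complex that makes the threonylcarbamoyl mark of transfer RNAs, fell from 16.6, 16.9, 20.005 and 18.2 TPM in controls 1 to 4 to 7.87, 5.50, 5.80 and 7.74 TPM in dKO. Every dKO embryo was below every control, with a difference of −1.28 (SE 0.13, adjusted p = 0.00236). Dap3, a GTP-binding protein of the small mitochondrial ribosomal subunit, fell from 22.6, 22.9, 24.2 and 25.1 to 9.70, 10.3, 8.92 and 9.82 TPM. Its groups were the tightest of the set, with a difference of −1.19 (SE 0.08, adjusted p = 0.000317). Coa3, an assembly factor of cytochrome c oxidase in the mitochondrial inner membrane, fell from 17.9, 16.6, 19.5 and 19.03 to 7.91, 6.59, 9.84 and 8.92 TPM (−1.04, SE 0.12, adjusted p = 0.00369). Eif3i, a subunit of the eIF3 complex that loads the small ribosomal subunit onto messenger RNA, fell from 83.1, 88.4, 93.4 and 84.0 to 48.5, 36.8, 43.7 and 45.4 TPM (−0.97, SE 0.11, adjusted p = 0.00405), and was the most abundant of the 11.

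Pde6d carries lipid-anchored proteins such as small GTPases between membranes and into cilia. It fell from 8.77, 8.10, 10.5 and 9.82 to 3.56, 3.31, 3.78 and 3.64 TPM, 38.5% of the control mean (−1.14, SE 0.09, adjusted p = 0.000496). Xrcc5, the Ku80 subunit that binds broken DNA ends for non-homologous end joining, fell from 5.35, 5.40, 5.67 and 5.604 to 2.18, 1.81, 2.63 and 2.44 TPM (−0.98, SE 0.10, adjusted p = 0.00184). Spc24, a member of the Ndc80 complex that couples kinetochores to spindle microtubules, fell from 14.0, 12.7, 17.3 and 16.1 to 6.86, 7.52, 6.65 and 7.12 TPM (−0.96, SE 0.09, adjusted p = 0.00175). In each of these 3 genes the lowest control embryo was well above the highest dKO embryo.

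Among the kinases and receptors, Mapk11, which codes for p38 beta of the stress-activated MAP kinases, fell from 5.51, 4.70, 5.14 and 5.41 to 2.43, 1.94, 1.87 and 1.93 TPM (−1.004, SE 0.08, adjusted p = 0.000676). Epha5, a receptor for ephrins in axon guidance, fell from 28.9, 36.5, 32.9 and 35.4 to 16.9, 20.8, 15.4 and 12.7 TPM (−0.97, SE 0.14, adjusted p = 0.00966). No control embryo overlapped the dKO range in either gene. Sms, spermine synthase, fell from 9.89, 11.1, 12.9 and 11.1 to 6.55, 4.49, 4.62 and 5.76 TPM (−0.93, SE 0.14, adjusted p = 0.00923). Eno1b, an enolase copy on chromosome 18, had the largest fitted difference (−1.49, SE 0.31, adjusted p = 0.0326), from 48.3, 27.9, 24.95 and 26.5 to 10.7, 16.8, 11.4 and 4.88 TPM. It is close in sequence to Eno1, so its reads may have been shared between the copies. The call was lost without any 1 of controls 1 to 4, dKO 1 or dKO 3 (adjusted p up to 0.077).

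Set beside the cKO embryos, which share the same controls, 2 of these 11 genes were lower still in dKO by the direct contrast, and 9 were not called by it. The cKO minus control difference was −1.24 for Lage3, −1.03 for Dap3, −0.97 for Pde6d, −0.94 for Xrcc5, −0.93 for Eif3i and −1.17 for Spc24. The direct contrast of dKO minus cKO was −0.04 for Lage3 (adjusted p = 0.888), −0.15 for Dap3 (0.2), −0.18 for Pde6d (0.233), −0.04 for Xrcc5 (0.832), −0.04 for Eif3i (0.859) and 0.20 for Spc24 (0.22). In that contrast 490 protein-coding genes were called (5.01%), and in that of cKO against control 633 (6.47%). Epha5 had a mean of 33.4 ± 3.37 TPM in control, 33.2 ± 4.75 TPM in cKO and 16.4 ± 3.35 TPM in dKO, as deposited, with SDs over 4 embryos. Its dKO minus cKO difference after the shift of each library was −0.72 (adjusted p = 0.0146). Mapk11 was also lower in dKO than in cKO, with a difference of −0.39 (adjusted p = 0.0138). Its cKO mean, 3.79 TPM, lay between those of control (5.19 TPM) and dKO (2.04 TPM).

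**Figure D2:**
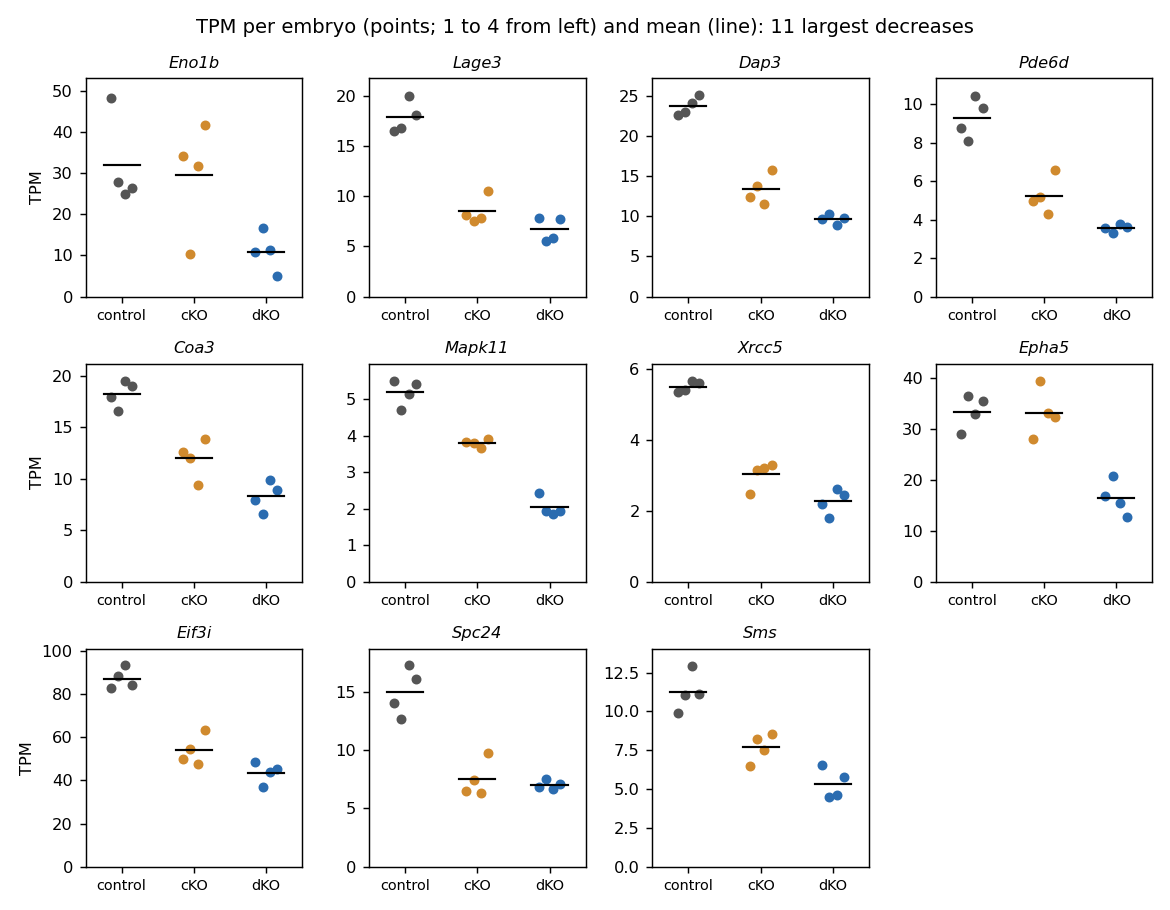
TPM in each embryo (points, embryos 1 to 4 from left to right in each group) and group mean (line) for the 11 largest decreases, in control, cKO and dKO; each panel has its own axis from 0. In every panel the 4 dKO points lie below the 4 control points; Epha5 is low in dKO alone, while Spc24 and Lage3 are low in both mutants.

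Other subunits of the same complexes were mostly not called. The families in this paragraph were chosen after the values were seen, so their counts are a description and support nothing further. Of all protein-coding genes tested, 3.4% were called, 1.23% higher and 2.18% lower. Of 13 eIF3 subunits tested, Eif3i was called lower and the other 12 ranged from −0.31 to 0.21. Of 32 proteins of the small mitochondrial ribosomal subunit, Dap3 alone was called, and the others ranged from −0.32 to 0.42. Of 19 cytochrome c oxidase assembly factors, Coa3 was called lower and Coa5 higher (0.33), and the other 17 ranged from −0.22 to 0.24. Among 7 Eph receptors, Epha5 and Epha3 were called lower, and the other 5 ranged from −0.15 to 0.19. Among 28 subunits of the nuclear RNA polymerases, 3 fell. Polr2e, shared by all of them, fell from 17.1–24.2 to 10.6–11.3 TPM (−0.77, SE 0.09, adjusted p = 0.0037), and Polr2k, also shared, from 3.38–3.87 to 1.24–1.92 TPM (−0.81, SE 0.11, adjusted p = 0.00729). The 25 not called lay between −0.46 and 0.39. Ciao2b, which inserts iron-sulfur clusters into cytosolic and nuclear proteins, fell from 13.2–15.2 to 6.11–7.71 TPM (−0.87, adjusted p = 0.00236), and none of the other 7 members of its pathway was called. Of 6 prefoldin subunits, Vbp1 (−0.65, adjusted p = 0.0163) and Pfdn5 (−0.50, adjusted p = 0.027) fell. Vbp1 lost its call without control 3 or control 4 (adjusted p up to 0.0556), and Pfdn5 without controls 2, 3 or 4 or dKO 2 or 3 (up to 0.0816). At the endoplasmic reticulum, where secreted proteins are cut and glycosylated, 4 of 17 signal peptidase and oligosaccharyltransferase subunits fell and 1 rose. Tmem258 (−0.72, adjusted p = 0.00833) and Spcs3 (−0.61, adjusted p = 0.00995) fell and Dad1 rose (0.55, adjusted p = 0.0125) in every fit that left out 1 embryo. Tusc3 (−0.60) and Magt1 (−0.58) fell too, with calls lost without control 3 (Tusc3, adjusted p = 0.0529) or any of controls 2 to 4 and dKO 1, 2 or 4 (Magt1, up to 0.125).

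A few genes reported to hold a minor intron fell without p53. Of 72 candidate genes tested, 6 were called lower and none higher (8.33%, against 3.4% of all protein-coding genes), and the median difference was −0.12, against 0.01 for all protein-coding genes tested. Of the 72, 51 were below 0 and 31 had an unadjusted p under 0.05. Of all 9784 protein-coding genes tested, 1954 had such a p. The list came from general knowledge, with earlier results of these data known, and its introns were not checked on sequence here. These counts are therefore a description and not independent support. Beside Mapk11, Spc24 and Polr2e, the called genes included Ssu72, a phosphatase of the RNA polymerase II tail, from 9.22–10.4 to 4.84–6.52 TPM (−0.67, SE 0.09, adjusted p = 0.00729), and E2f5, a repressor of cell cycle genes, from 3.81–4.42 to 2.38–2.82 TPM (−0.48, SE 0.07, adjusted p = 0.0112). All 6 calls held whichever embryo was left out. The other 66 ranged from −0.54 to 0.35. Among 14 proteins of the minor spliceosome itself, only Ccdc84, which acts in splicing of a subset of minor introns, was called, and it rose, from 2.88–3.79 to 4.37–7.38 TPM (0.70, SE 0.12, adjusted p = 0.018). That call was lost without control 2, 3 or 4 (adjusted p up to 0.0633). Both Snrnp48 and Rnpc3 belong to the U11/U12 particle. Snrnp48 (4.60 to 6.68 TPM, 0.49, adjusted p = 0.0573) and Rnpc3 (16.0 to 21.5 TPM, 0.41, adjusted p = 0.225), had all 4 dKO embryos above the controls without passing the test.

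The histone genes that are copied into RNA only in S phase made up the largest group among the decreases. Of 64 tested, 38 were called lower and 1 higher (60.9%, against 3.4% of all protein-coding genes), with a median difference of −0.64, and 61 were below 0. Their transcripts supply the nucleosomes for newly made DNA and, unlike other messenger RNAs, end in a stem-loop instead of a poly(A) tail. Their summed level was 22500, 15541, 19682 and 18972 TPM in controls 1 to 4 and 11798, 12148, 11791 and 12947 TPM in dKO 1 to 4, with every dKO embryo below every control. The cKO sums, as deposited, lay between 10923 and 14646 TPM. Relative to the median gene, the median histone difference from control was larger in cKO (−0.90, fit of 3 groups) than in dKO (−0.64). The 2 medians were not compared by a test.

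Every class took part. Of the linker histones H1, 4 of 5 tested fell, among them Hist1h1b, from 711, 636, 688 and 697 to 444, 388, 344 and 407 TPM (−0.77, SE 0.11, adjusted p = 0.00818). In H2B 13 of 17 fell, led by Hist1h2bk, from 266, 126, 179 and 245 to 85.9, 84.1, 80.1 and 89.1 TPM (−1.18, SE 0.19, adjusted p = 0.0147). In H2A 8 of 17, in H3 5 of 12 and in H4 8 of 13 fell. The exception was Hist1h4i, which rose from 84.9, 84.1, 90.7 and 87.5 to 147, 154, 134 and 140 TPM (0.74, SE 0.08, adjusted p = 0.00286), the smallest dKO value well above the largest control. It was also higher in dKO than in cKO, where it ranged from 112 to 153 TPM (adjusted p = 0.00876). H1f0, a linker histone that is made outside S phase and was in no list, fell from 35.5–45.0 to 23.3–27.5 TPM (−0.68, SE 0.09, adjusted p = 0.00729).

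Histone genes are near-identical copies between which reads may be shared, so single members are uncertain and the class sums are the firmer values. Control 1 was the highest control in all 5 class sums, and without it 22 histones were called lower. The count fell to 10 without control 4 or dKO 3, 11 without control 3 and 19 without dKO 2, and 9 of the 38 were called lower in all 8 such fits. The median difference stayed between −0.71 and −0.55.

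**Figure D3:**
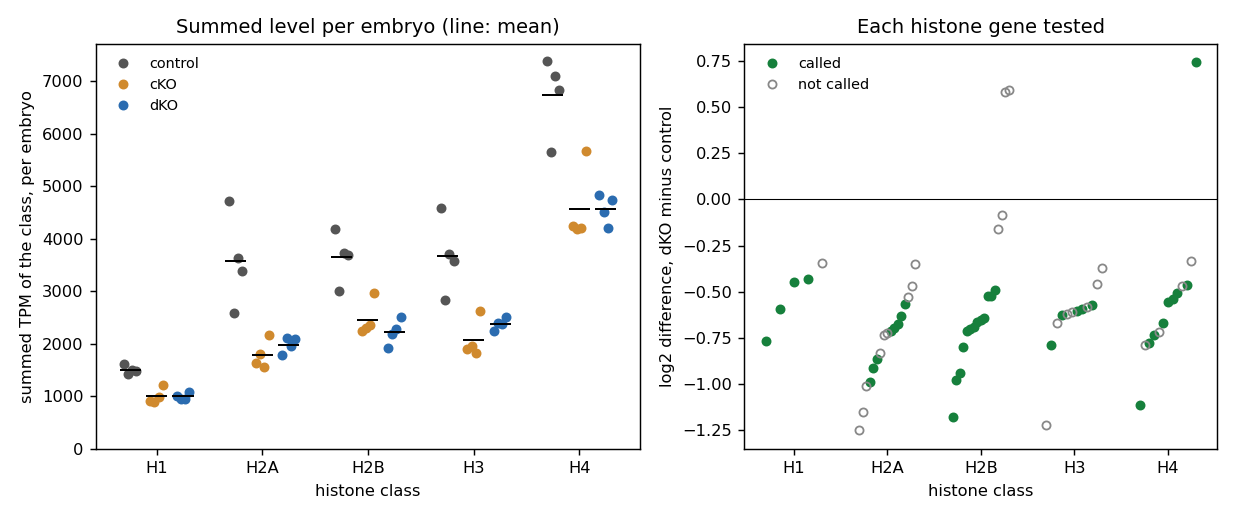
Left, the summed TPM of each histone class per embryo (points) with the mean of the group (line), in control, cKO and dKO. Right, the log2 difference of dKO minus control for each of the 64 histone genes tested, filled where called; 61 lie below 0 and Hist1h4i, in H4, is the 1 called gene above it.

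Beside histones, few genes of the cell cycle passed the test, and all but 1 of those were lower. In DNA replication 6 of 59 genes were called lower and none higher (10.2%, against 3.4% of all protein-coding genes), with a median of −0.21 and 49 of 59 below 0. The 4 firmest supply or use deoxynucleotides. Tk1, thymidine kinase, fell from 21.7, 16.7, 21.1 and 21.7 to 12.2, 9.35, 11.01 and 12.2 TPM (−0.78, SE 0.11, adjusted p = 0.00903). Rrm2, the small subunit of ribonucleotide reductase, fell from 22.7, 13.8, 16.9 and 17.3 to 9.89, 11.2, 9.498 and 10.05 TPM (−0.70, SE 0.11, adjusted p = 0.0129). Tyms, thymidylate synthase, fell from 44.2–49.0 to 29.8–31.8 TPM (−0.54, SE 0.08, adjusted p = 0.00833), and Pole2, a subunit of the leading-strand polymerase, from 7.99–9.91 to 4.05–5.59 TPM (−0.74, SE 0.11, adjusted p = 0.00995). The 4 genes had no overlap between groups and held with any embryo left out. Rfc5, of the clamp loader, also fell (−0.72, adjusted p = 0.0139; lost without control 3 or 4, adjusted p up to 0.0507). The MCM helicase genes Mcm2 (25.3 and 25.5 TPM in control and dKO) and Mcm5 (14.0 and 14.6 TPM) were not called.

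In mitosis 5 of 89 genes were called lower and 1 higher (6.74%, against 3.4%), with a median of −0.15 and 77 below 0. The lower calls numbered 1 without control 3, control 4 or dKO 3, and 12 in the values with no shift. After Spc24, the condensin subunit Ncapg2 (6.85–7.44 to 3.83–5.05 TPM, −0.51, adjusted p = 0.0184) and Ndc80, the partner of Spc24 (16.9–20.3 to 12.1–13.8 TPM, −0.44, adjusted p = 0.0364), fell, and Cenpw, a centromere histone-fold protein, rose (8.97–11.2 to 13.03–16.4 TPM, 0.50, adjusted p = 0.0322). Ncapg2 lost its call without control 2, 3 or 4 or dKO 3 (adjusted p up to 0.0618). Ndc80 kept its call only without control 1 or dKO 1 (up to 0.103) and Cenpw only without dKO 1 or 2 (up to 0.0855). Cdk1 (104 and 86.9 TPM, adjusted p = 0.292) and Mki67 (44.4 and 35.4 TPM, adjusted p = 0.233) were not called. Among 25 G1 regulators 4 were called lower (16.0%, against 3.4%; 2 without control 1, 3 or 4): Ccne2, the cyclin of S phase entry (6.52–7.37 to 3.24–4.38 TPM, −0.72, SE 0.10, adjusted p = 0.00833), E2f5, E2f8 (−0.48, adjusted p = 0.0212) and Cdkn2c (−0.53, adjusted p = 0.0349). Ccne2 and E2f5 kept their calls with any embryo left out, E2f8 lost its call without control 1, 3 or 4 or dKO 4 (up to 0.077), and Cdkn2c kept its call only without dKO 4 (up to 0.106). Of the 25, 15 were below 0 and 10 above, with a median of −0.09. Ccnd1, a G1 cyclin, had the largest difference upward, from 8.52–13.2 to 15.1–23.3 TPM. It was not called by limma (0.63, adjusted p = 0.0539). With a pseudocount of 0.1, quantile normalization, rescaling, sample weights, 12 libraries or a mean of at least 5 TPM, 1 of this list was called higher. Esco2, which joins sister chromatids and was in no list, fell from 14.4–17.4 to 8.34–10.1 TPM (−0.73, SE 0.10, adjusted p = 0.00833). No gene was called by limma among 17 of cytokinesis or among 38 of the centrosome and primary microcephaly (medians −0.05 and −0.12, with 3 and 8 at an unadjusted p under 0.05). Without dKO 1, 2 of the centrosome list were called lower.

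In DNA repair 4 of 76 genes were called lower and none higher (5.26%, near the 3.4% of all protein-coding genes), with a median of −0.13. Without control 4, 2 were called. They included Xrcc5, the mismatch repair gene Msh3 (12.3–12.97 to 7.90–10.1 TPM, −0.44, adjusted p = 0.0334), and Fanca of the crosslink repair pathway (−0.54, adjusted p = 0.0134). Msh3 was also lower in dKO than in cKO (−0.34, adjusted p = 0.0347). Xrcc5 kept its call with any embryo left out, Fanca lost its call without control 4 (adjusted p = 0.0518), and Msh3 kept its call only without control 1 or dKO 4 (up to 0.098). Outside the lists, Neil3, a DNA glycosylase of dividing cells, fell from 6.48–7.996 to 3.20–4.42 TPM (−0.76, SE 0.10, adjusted p = 0.00731), and Donson, of replication fork protection, from 5.50–6.69 to 3.40–4.16 TPM (−0.56, SE 0.08, adjusted p = 0.00818).

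No tested target gene of p53 was called in dKO. None of 26 passed limma's test in either direction (6 had an unadjusted p under 0.05; 3 were called lower in the 12-library fit and 1 with sample weights), and their median was −0.08. The sum of the listed targets was 166.6–183.2 TPM in control, 153.7–155.4 TPM in dKO and 353–420 TPM in cKO. Ccng1, a cyclin induced by p53, measured 7.499, 8.33, 9.06 and 8.23 TPM in control, 44.2, 45.0, 46.7 and 54.7 TPM in cKO and 6.30, 6.32, 7.74 and 7.44 TPM in dKO; dKO did not differ from control by the test (−0.20, 95% confidence interval −0.43 to 0.02, adjusted p = 0.289). Mdm2, the ligase that degrades p53, stood at 14.8 ± 0.443, 27.9 ± 1.52 and 12.4 ± 2.03 TPM in the same order of groups (SD, n = 4 each; dKO minus control −0.22, 95% confidence interval −0.48 to 0.03, adjusted p = 0.303). The cell cycle inhibitor Cdkn1a (0.597, 3.61 and 0.425 TPM) and the death receptor Eda2r (0.835, 11.6 and 0.533 TPM) were under the limit of 1 TPM over control and dKO and were not tested. Of 18 regulators of p53 only Trp53 itself was called. In apoptosis 2 of 25 genes were called (8%, against 3.4% of all protein-coding genes), both lower. They were Bcl2, an inhibitor of cell death (2.49–2.77 to 1.53–1.92 TPM, −0.37, adjusted p = 0.02), and Bok, a promoter of it (3.37–4.64 to 2.57–3.11 TPM, −0.38, adjusted p = 0.0399). Bcl2 lost its call without control 2, 3 or 4 or dKO 4 (adjusted p up to 0.0796), and Bok kept its call only without control 2 or dKO 1 (up to 0.126).

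By the same rule, with at least 5 TPM in the higher group, the largest increases were those of Serpinh1, Pcf11, Ppp1r10, Snrnp200, Col4a1, Cpne1, Dcp2, Uspl1, Mthfd2l, Krt10, Ccdc84 and Prpf8. These 12 reached 1.67-fold to 1.87-fold of the control mean. The 2 genes called higher by at least 1 were outside that rule. So were Mttp and Bmp4, which had larger log2 differences than these 12 and are described below. Serpinh1, Pcf11, Snrnp200, Dcp2 and Uspl1 kept their calls whichever embryo was left out, and the other 7 did not.

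Pcf11, a cleavage and termination factor at the ends of genes, rose from 16.7, 18.3, 16.8 and 17.2 TPM in controls 1 to 4 to 32.3, 36.7, 28.9 and 25.3 TPM in dKO (0.82, SE 0.11, adjusted p = 0.00751). Snrnp200, a helicase of both spliceosomes that unwinds U4 from U6 in the major one, rose from 10.02, 7.36, 8.56 and 9.45 to 13.2, 16.4, 18.3 and 15.7 TPM (0.80, SE 0.10, adjusted p = 0.00688). Dcp2, which removes the cap of messenger RNAs for decay, rose from 4.47, 3.39, 4.28 and 4.00 to 8.23, 8.35, 6.85 and 6.40 TPM (0.77, SE 0.09, adjusted p = 0.00405). In these 3 genes the 4 dKO embryos stood clear of the controls. Uspl1, a SUMO protease of Cajal bodies, where small nuclear RNAs are processed, rose from 5.77, 6.24, 5.20 and 5.28 to 11.7, 10.4, 9.08 and 8.74 TPM (0.75, SE 0.11, adjusted p = 0.00905). Serpinh1, the collagen chaperone HSP47, rose from 48.8, 35.2, 38.5 and 40.0 to 69.2, 69.2, 80.9 and 64.3 TPM (0.82, SE 0.10, adjusted p = 0.00617).

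The remaining 7 increases had smaller margins. Prpf8, the core protein of both spliceosomes, rose from 8.64, 5.72, 6.33 and 7.03 to 8.66, 12.7, 14.7 and 10.2 TPM (0.68, SE 0.15, adjusted p = 0.0388), with dKO 1 next to control 1. The call was lost without controls 2, 3 or 4 or dKO 2, 3 or 4 (adjusted p up to 0.106) and in the values with no shift (0.0654). Col4a1, a basement membrane collagen, rose from 14.3, 7.56, 8.22 and 12.2 to 17.5, 16.4, 19.3 and 19.8 TPM (0.80, SE 0.17, adjusted p = 0.0335; lost without controls 2, 3 or 4 or dKO 1, 3 or 4, up to 0.0898, and with no shift, 0.0507). Ppp1r10, a nuclear anchor of protein phosphatase 1, rose from 5.65–7.69 to 9.04–16.01 TPM (0.81, SE 0.15, adjusted p = 0.0195; lost without controls 2, 3 or 4, up to 0.0676). Cpne1, a calcium-binding membrane protein (0.78, adjusted p = 0.0295), Mthfd2l, a mitochondrial folate enzyme (0.75, adjusted p = 0.032), and Krt10, a keratin (0.73, adjusted p = 0.0388), rose too. Cpne1 kept its call only without control 4 or dKO 1 (adjusted p up to 0.0854), Mthfd2l only without dKO 3 (up to 0.096) and Krt10 only without dKO 1 (up to 0.0992).

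Pcf11, Snrnp200, Serpinh1 and Uspl1 were higher in dKO than in cKO. The dKO minus cKO difference was 0.54 for Pcf11 (adjusted p = 0.0127), 0.52 for Snrnp200 (0.00828), 0.51 for Serpinh1 (0.0181) and 0.56 for Uspl1 (0.00963). The cKO minus control differences, on shared controls, were 0.28, 0.28, 0.30 and 0.18 in the same order (adjusted p = 0.136, 0.0894, 0.111 and 0.329). Dcp2 and Ccdc84 were at or above their dKO level in cKO, with means of 9.67 and 7.24 TPM against 7.46 and 5.80 TPM, and the direct contrast did not separate the mutants (−0.07, adjusted p = 0.685, and −0.02, adjusted p = 0.923).

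**Figure D4:**
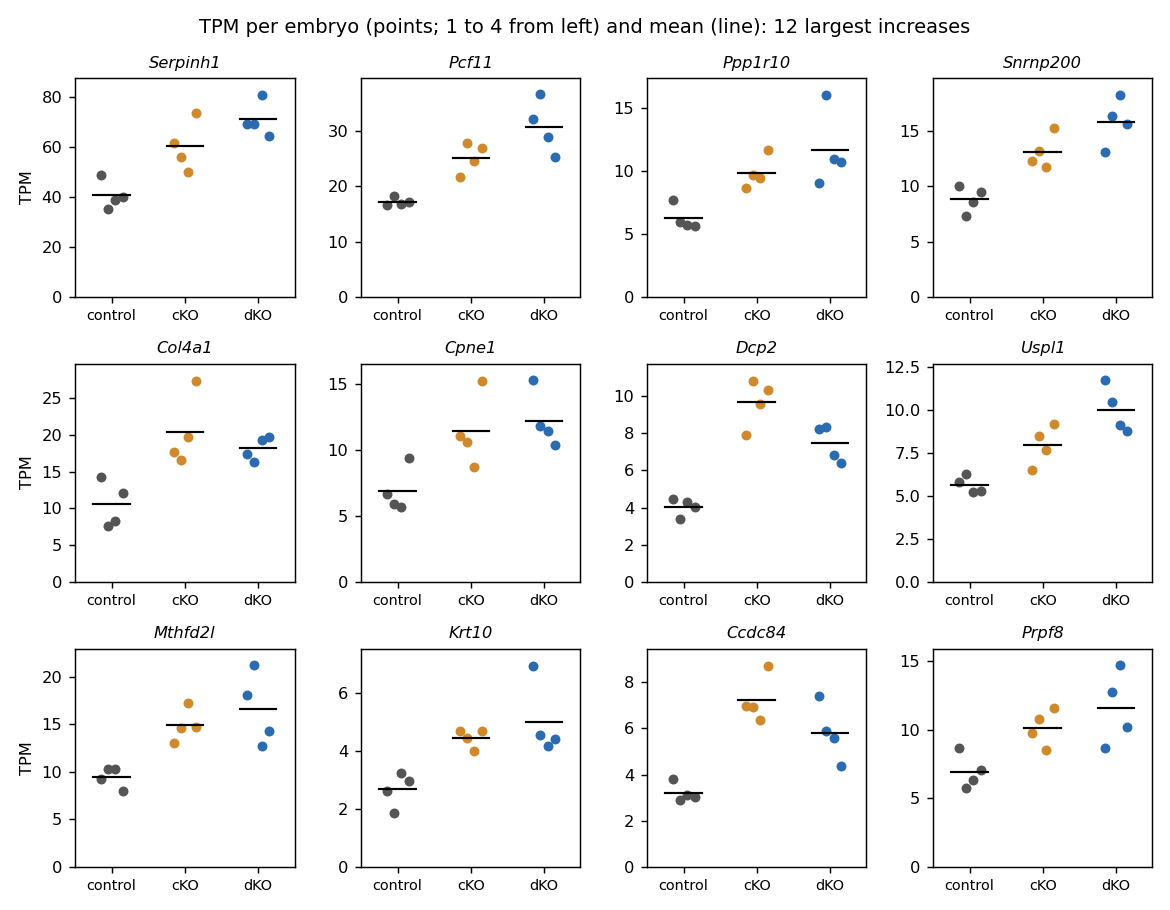
TPM in each embryo (points, 1 to 4 from left in each group) and group mean (line) in control, cKO and dKO. The genes are the 12 largest increases by the rule in the text, and each panel has its own axis from 0. In every panel the dKO points lie above the control points, by a wide margin in Pcf11 and Dcp2 and by almost none between control 1 and dKO 1 in Prpf8.

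Families of RNA processing genes, again chosen after the values were seen, are described by their counts, beside the 1.23% of all protein-coding genes that rose. Of 8 U5 snRNP proteins 3 rose, Snrnp200, Prpf8 and Txnl4a (0.46, adjusted p = 0.0389; kept only without dKO 1 or 2, up to 0.111). Of 20 cleavage and polyadenylation factors 3 rose, Pcf11, Cstf3 (0.45, adjusted p = 0.0212; lost without control 1, 3 or 4, up to 0.0762) and Cstf2t (0.41, adjusted p = 0.0281; kept only without control 1, dKO 1 or dKO 2, up to 0.0959). In the list of 51 proteins of the major spliceosome and splicing regulators, 2 rose and 1 fell (5.88%, against 3.4% called of all protein-coding genes), with a median of 0.04. The gene that fell was Srsf1, a splicing activator, from 119, 106, 120 and 108 to 81.4, 63.2, 58.9 and 64.4 TPM (−0.74, SE 0.12, adjusted p = 0.0117). It stood at 112, 132, 127 and 138 TPM in cKO and was lower in dKO than there (−0.66, adjusted p = 0.00444). Of 26 genes of nonsense-mediated decay and the RNA exosome, 1 was called: Exosc5, a ring subunit of the exosome, which fell from 2.26–2.78 to 1.03–1.39 TPM (−0.62, SE 0.09, adjusted p = 0.00825). Dgcr8, the RNA-binding partner in microRNA cropping, in no list, fell from 12.997–15.3 to 8.59–10.1 TPM (−0.48, SE 0.08, adjusted p = 0.0134).

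Of 30 chaperone genes 3 rose and none fell, with a median of 0.05, where 1.23% of all protein-coding genes rose. The count was 0 without control 2, 3 or 4 or dKO 3 or 4. The 3 act in the endoplasmic reticulum: Hyou1 (3.18–4.28 to 4.36–6.12 TPM, 0.46, adjusted p = 0.0248), the disulfide isomerase Pdia4 (22.9–27.4 to 30.7–34.5 TPM, 0.38, adjusted p = 0.0325) and the calcium-binding Calr (86.9–102 to 118–129 TPM, 0.37, adjusted p = 0.0389). Hyou1 kept its call only without control 1 or dKO 1 (adjusted p up to 0.0867), Pdia4 only without dKO 1 or 2 (up to 0.098) and Calr only without dKO 1 (up to 0.108). Hspa5, the main chaperone there, was not called (31.1 and 37.7 TPM, 0.30, adjusted p = 0.071). None of 37 genes of the integrated stress response was called by limma, and 7 had an unadjusted p under 0.05.

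Markers of cortical cells changed in few members. Among 18 markers of intermediate progenitors, the transient dividing cells between radial glia and neurons, 3 fell (16.7%, against 3.4%; 0 without control 3 or 4): Eomes, the transcription factor that defines them, from 9.46, 7.08, 9.04 and 8.51 to 4.76, 6.42, 5.05 and 5.50 TPM (−0.54, SE 0.09, adjusted p = 0.0156), the somatostatin receptor Sstr2 (−0.60, adjusted p = 0.0195) and Rhbdl3 (−0.44, adjusted p = 0.0247). Eomes and Sstr2 lost their calls without control 3 or 4 (adjusted p up to 0.0543 and 0.0706), and Rhbdl3 kept its call only without control 2, dKO 1 or dKO 3 (up to 0.0894). The direct contrast of dKO and cKO called none of the 3 (adjusted p = 0.357, 0.407 and 0.652). Of the 18 markers 10 were below 0 and 8 above, with a median of −0.10, and the 15 not called ranged from −0.37 to 0.28. Among 34 markers of radial glia 1 fell and 1 rose (5.88%, against 3.4%), with a median of −0.06, 20 below 0 and 14 above. Id4, an inhibitor of helix-loop-helix factors, fell (21.6–31.3 to 14.4–19.5 TPM, −0.60, adjusted p = 0.0256). Pdpn rose (5.70–6.95 to 7.34–11.1 TPM, 0.56, adjusted p = 0.0326). Id4 kept its call only without control 2, dKO 1 or dKO 2 (adjusted p up to 0.0772), and Pdpn only without dKO 1 (up to 0.102).

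Projection neuron markers had no call by limma among 46 (13 at an unadjusted p under 0.05, 4 called lower without dKO 2, 6 lower in the 12-library fit, and 7 lower and 1 higher with sample weights), with a median of −0.17, and a summed level of 836–876 TPM in control against 601, 921, 747 and 697 TPM in dKO, where dKO 2 was above all controls and the other 3 below. Among 19 ion channels and synaptic receptors 3 fell (15.8%, against 3.4%; 5 without control 1, 1 without control 2, 3 or 4 or dKO 3 or 4): the potassium channel Kcnh7, from 4.04, 6.84, 5.82 and 5.18 to 2.76, 3.16, 1.99 and 2.05 TPM (−0.86, SE 0.17, adjusted p = 0.0248), the nicotinic receptor Chrna7, from 1.38–1.77 to 0.615–0.694 TPM (−0.63, SE 0.10, adjusted p = 0.0129), and the calcium channel subunit Cacna2d1 (−0.31, adjusted p = 0.0497). Kcnh7 and Cacna2d1 were lower in dKO than in cKO as well (−0.84, adjusted p = 0.0141, and −0.76, adjusted p = 0.00755). Against control, Kcnh7 kept its call only without control 1, dKO 1 or dKO 2 (adjusted p up to 0.0768) and Cacna2d1 only without control 1 (up to 0.147), while Chrna7 kept its call with any embryo left out. Glrb, the beta subunit of the glycine receptor, in no list, fell from 3.80–5.31 to 1.92–2.01 TPM (−0.82, SE 0.10, adjusted p = 0.00637), and Tuba4a, a tubulin, from 3.89–4.59 to 1.95–2.61 TPM (−0.58, SE 0.09, adjusted p = 0.00973), the 1 called of 42 cytoskeletal and migration genes.

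Markers of cells outside the Emx1-Cre lineage or at the edge of the dissected tissue had medians above 0 in dKO, though few were called. Of all protein-coding genes tested, 3.4% were called and 1.23% were called higher. For meninges and fibroblasts 2 of 22 were called higher, Col4a1 and Islr (0.68, adjusted p = 0.032; kept only without control 1 or dKO 1, up to 0.0935), the median was 0.42 with 21 above 0, and the summed level was 112–183 TPM in control and 166–230 TPM in dKO. That count depended on single embryos: it was 7 without control 1, 4 without dKO 2, and 0 without control 2, 3 or 4 or dKO 3 or 4. It was 8 in the 12-library fit and 15 with sample weights, and 19 of the 22 had an unadjusted p under 0.05. For the cortical hem and choroid plexus 1 of 17 was called, Bmp4, a patterning signal of the dorsal midline (0.603–1.22 to 2.05–2.68 TPM, 0.89, SE 0.13, adjusted p = 0.00966; kept with any embryo left out), with a median of 0.35 and sums of 71.5–138 and 109–374 TPM. Ttr, a defining choroid plexus gene, measured 35.0–90.7 TPM in control and 57.0–267 TPM in dKO (adjusted p = 0.225). For vessels none of 14 (median 0.29; 34.0–46.1 and 42.2–57.4 TPM), for microglia none of 17 (median 0.30; 50.7–95.4 and 55.4–79.3 TPM) and for blood none of 10 (median 0.02; 2062–3125 and 2240–2870 TPM) was called by limma. At an unadjusted p under 0.05 there were 7, 9 and 1. Without dKO 1, 1 vessel and 2 microglial markers were called higher, and with sample weights 5 and 8. Without dKO 4, 1 blood marker was called. The laminin and collagen IV genes Lamc1 (0.55, adjusted p = 0.0364; kept only without dKO 1 or 3, up to 0.107) and Lamb1 (0.45, adjusted p = 0.0349; kept only without dKO 1, up to 0.106) and Serpinh1 moved in the direction of the meningeal and vessel markers, whose part in those increases was not tested. Of 9 Cajal-Retzius markers 8 were above 0 (median 0.23) and 1, Eomes, which is also an intermediate progenitor marker, fell. Calb2 rose (1.58–2.31 to 3.10–5.63 TPM, 0.82, adjusted p = 0.0334; kept only without dKO 1 or 3, up to 0.0983). Among 7 of interneurons Meis2 fell (−0.46, adjusted p = 0.0369; kept only without dKO 1 or 2, up to 0.114, and lost with protein-coding rescaling). The other 6 ranged from −0.18 to 0.46, and the median of the 7 was 0.07, with 4 above 0.

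**Figure D5:**
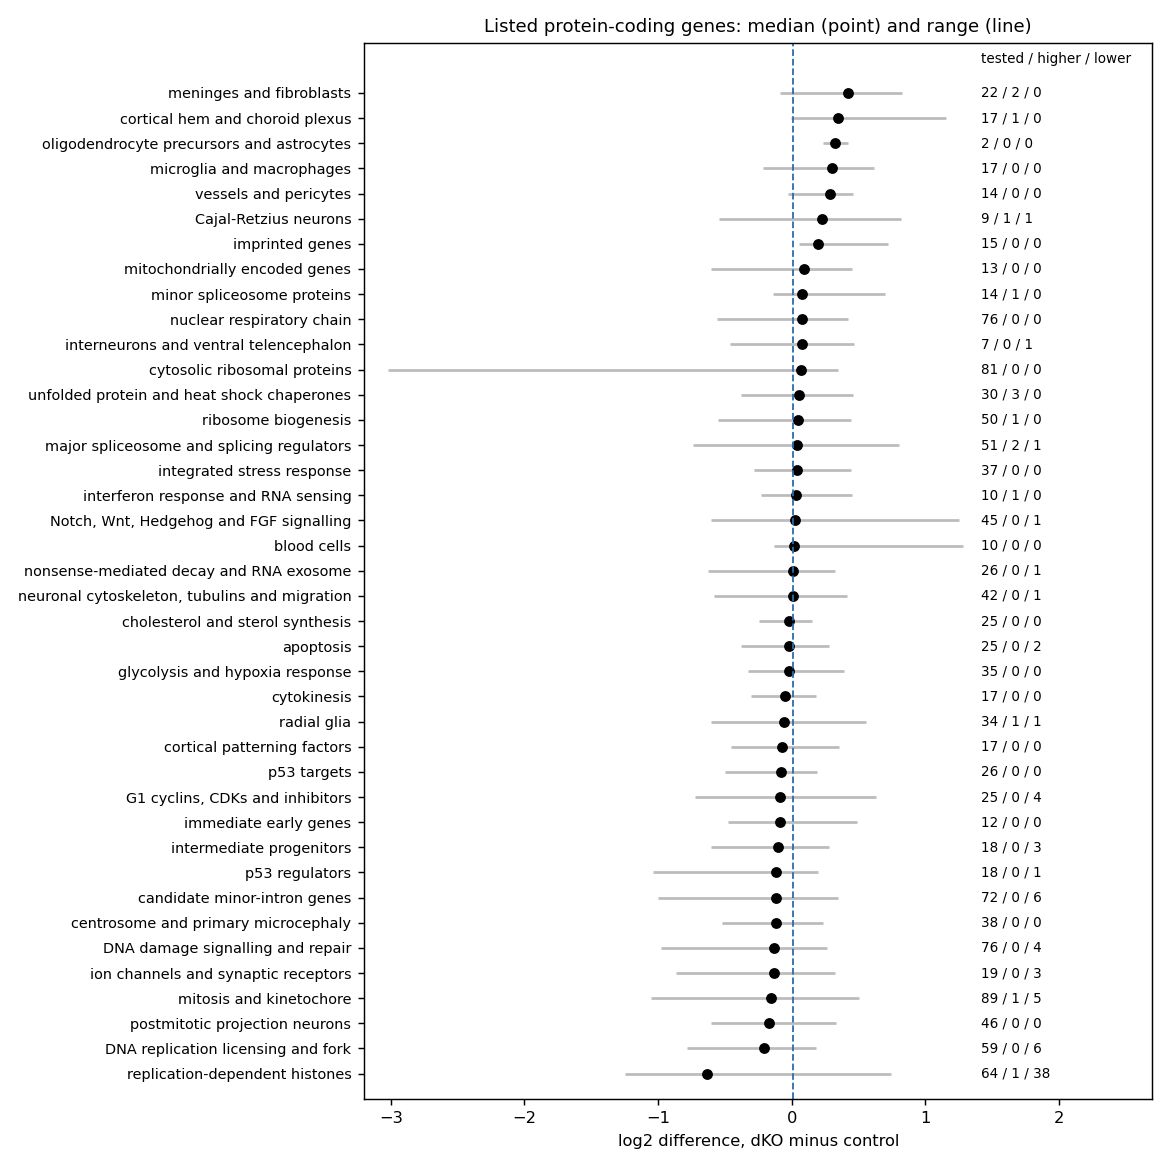
Each row is a list of protein-coding genes by function or cell type, with the median (point) and full range (line) of the log2 difference of dKO minus control, ordered by the median; the numbers give genes tested, called higher and called lower, and the dashed line is the median of all protein-coding genes. Histones stand apart at −0.64 with 38 called lower, and the low end of the ribosomal protein line, at −3.02, is Rpl29, which was not called.

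No gene was called by limma in either direction among 81 cytosolic ribosomal proteins (median 0.07), 76 nuclear genes of the respiratory chain (0.07), 13 mitochondrially encoded genes (0.09), 35 of glycolysis and hypoxia (−0.02), 25 of sterol synthesis (−0.02), 12 immediate early genes (−0.09), 17 cortical patterning factors (−0.07) and 15 imprinted genes (0.19). In the same order, 9, 11, 0, 8, 2, 7, 4 and 5 of them had an unadjusted p under 0.05. Of all 9784 protein-coding genes tested, 1954 did, and 3.4% were called by limma. Of each list, at most 1 gene was called without 1 embryo, at most 2 in the 12-library fit and at most 4 with sample weights. One gene was called in each of the lists of ribosome biogenesis (Nol6, 0.44, of 50 tested), interferon response (Ifitm2, 0.45, of 10) and Notch, Wnt, Hedgehog and FGF signalling (Id4, of 45). Nol6 kept its call only without dKO 4 (adjusted p up to 0.12) and Ifitm2 only without dKO 1 (up to 0.113).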

How the data were processed

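Per the labels, stranded total RNA libraries of dissected E13.5 tissue were sequenced, and 1 table of gene symbols and values was deposited per embryo. The deposited values are TPM, judged from library sums of 1000000; HISAT2 and mm10 are named in the submitters' processing notes, and the counting tool and annotation are not given in the sources used here. Gene types and coordinates came from GENCODE M21 (54106 of 54735 symbols matched). log2(TPM + 1) values of genes whose mean reached 1 TPM were shifted per library by the median difference from the mean library and fitted with limma 3.58.1 (lmFit, eBayes with trend) in R 4.3.3, with Benjamini-Hochberg adjustment over all genes. cKO values came from a fit of 3 groups and 12 libraries on the same genes. Single values were tested by exact permutation over 70 assignments. This scale understates changes of low genes. Members and lists were chosen with earlier results of these data known; named genes are the deleted genes, the largest called changes each way (up to 12) (groups apart, at least 5 TPM in the higher group, no histones, sex-linked markers or predicted models), up to 4 called genes per list, Spc24 and 4 p53 targets. Some genes that the rule names are not reported here. Others were named after their values were seen, as were the families. Nothing says whether embryos shared litters; same-numbered embryos did not deviate together. Fits were tested on simulated data, and figures were drawn with matplotlib 3.10.9. Alternatives are under the closing section.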

Additional observations from a re-analysis of the deposited data

Results flagged for a closer look

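Among 146 groups of 4 values examined, 9 held an embryo far from the other 3, measured as the gap to the nearest value over the group's range and set against Dixon's critical value; chance gives about 7.3, and 4 of the 9 were control 1. Control 1 was high for Ppp1r10 (7.69 TPM, others 5.65–5.97; ratio 0.842), Eno1b (48.3 TPM, others 24.95–27.9; 0.874), Tuba4a (4.59 TPM, others 3.89–3.97; 0.885) and Cdkn1a (1.24 TPM, others 0.345–0.427; 0.907). Control 2 was low for Tk1 (16.7 TPM, others 21.1–21.7; 0.883) and Calr (86.9 TPM, others 100.5–102; 0.88). In the double mutants, dKO 1 was high for Krt10 (6.91 TPM, others 4.15–4.53; 0.862) and Mapk11 (2.43 TPM, others 1.87–1.94; 0.867), and dKO 2 for Hist1h2ab (116 TPM, others 91.2–94.5; 0.868).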

How the results depend on the processing

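No named gene reversed its direction under any alternative. Of the 40 lists, 17 had a median of the other sign under at least 1 alternative, among them mitochondrially encoded genes (0.09; −0.20 without control 4, −0.24 without dKO 2, −0.06 without dKO 4), cortical patterning factors (−0.07; 0.05 without control 1), splicing proteins (0.04; −0.04 without dKO 1), interneuron markers (0.07; −0.09 without dKO 2) and microglia (0.30; −0.05 at a mean of at least 5 TPM). Called protein-coding genes, 333 here, numbered 173 with no filter on low values, 755 in the 12-library fit, 902 with sample weights, 12 with a minimum log2 change of 1, and 100 to 349 without 1 embryo. Called genes of any type, 468 here, numbered 297 at a mean of at least 5 TPM, 964 with 12 libraries, 1150 with sample weights, 59 with a minimum change of 1, and 174 to 492 without 1 embryo. Called genes in the functional lists, 90 here, numbered 43, 178 and 206 with no filter, 12 libraries and sample weights, and 30 to 91 without 1 embryo. For cKO, protein-coding calls against control (633 here) were 3586 with no shift and 1235 with protein-coding rescaling, and calls of dKO against cKO (490 here) 4027 and 803; the cause was not tested. Without 1 embryo, Rnu11 ranged from −2.05 to −1.86 and Trp53 from −1.16 to −0.83, each with p = 0.0571 by exact permutation, which is the least that 3 against 4 allows. With the replicate number as a block, calls were 27 protein-coding, 73 of any type and 9 in lists, and Rnu11 (−1.94) and Trp53 (−1.04) had an exact sign-flip p of 0.125, the smallest possible; same-numbered embryos had correlations from −0.045 to 0.015, no control embryo correlated best with its own number, and so the numbers were not taken as pairs. Of the 65 named genes that were called, the call held in 64 with a pseudocount of 0.1, 63 with quantile normalization, 62 with rescaling, 57 with no shift (lost: Prpf8, Col4a1, Hyou1, Calr, Islr, Bok, Nol6, Ifitm2) 36 with no filter and 16 with the replicate block. Depth is unknown, so the precision of low values cannot be given.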

Other observations

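Several genes outside the lists differed in every embryo and in each fit without 1 embryo; they were picked after their values were seen. Fig4, a lipid phosphatase of endosomes whose loss harms neurons, fell from 3.42–4.02 TPM in control to 1.47–2.03 TPM in dKO (−0.75, SE 0.09, adjusted p = 0.00369). Mios, a subunit of the GATOR2 complex that relays amino acid supply to mTORC1, fell from 2.28–2.62 to 1.16–1.29 TPM (−0.61, SE 0.07, adjusted p = 0.00405), and Arl2, a GTPase of tubulin folding, from 5.49–6.71 to 2.77–3.65 TPM (−0.79, SE 0.08, adjusted p = 0.00197). Pdcd4, an inhibitor of translation, fell from 12.1–15.7 to 6.85–9.09 TPM (−0.76, adjusted p = 0.00729). Of the guidance genes, Robo3 (1.53–2.24 to 0.744–1.13 TPM, −0.63, adjusted p = 0.0115) and Sema5a (2.44–3.28 to 1.26–1.66 TPM, −0.61, adjusted p = 0.00973) fell. Mttp, a lipid transfer protein, rose from 1.39–1.83 to 3.78–4.65 TPM (0.98, SE 0.07, adjusted p = 0.000484), above the 2.703–3.31 TPM of cKO (dKO against cKO adjusted p = 0.000206), and Med23, a Mediator subunit, rose from 2.51–3.18 to 4.36–5.17 TPM (0.54, adjusted p = 0.00742).

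The largest called protein-coding difference was that of a predicted gene model on chromosome Y, Gm47283, which the naming rule left out: 5.22–6.002 TPM in control, 2.53–4.73 TPM in cKO and 0 to 0.0362 TPM in dKO (−2.67, SE 0.08, adjusted p = 1.56e-06). Its level did not follow that of the Y-linked marker genes, whose sum was 36.7, 42.5, 0.115 and 0 TPM in controls 1 to 4 and 43.4, 31.5, 0.0066 and 32.5 TPM in dKO 1 to 4; what sets the level of Gm47283 was not tested. Rpl29, a ribosomal protein, measured 89.0–114 TPM in control and 95.3–117 TPM in cKO but 1.09, 107, 55.8 and 0.668 TPM in dKO 1 to 4. Uimc1, a DNA repair adaptor on another chromosome, followed the same order of dKO embryos at 5.46, 46.3, 19.9 and 5.28 TPM, against 42.1–52.4 TPM in control and 47.2–59.6 TPM in cKO. Neither was called (adjusted p = 0.222 and 0.135), and the dKO embryos differed widely among themselves. Within 10 Mb of Rnu11, 4 of 173 other protein-coding genes tested were called (2.31%, against 4.1% on the rest of chromosome 4), and within 10 Mb of Trp53 3 of 188 (1.6%, against 2.69% on the rest of chromosome 11).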
